A study of Cervus nippon with 40 samples.

Results

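Heart and skeletal muscle of Sika Deer (Cervus nippon) were compared through 8 small RNA libraries, 4 of heart and 4 of skeletal muscle, out of 40 libraries from 10 organs. Each organ had 1 library at each of 4 stages. The juvenile deer were 1 year old, the adolescence deer 3, the adult deer 5 and the aged deer 10 years old. All animals were males of the Shuangyang breed. Each library pooled equal RNA of 3 deer, and the 12 deer of the study gave both organs, so heart and muscle of 1 stage came from the same animals. There was therefore no repeat library within a stage, and the 4 stages served as the 4 replicates of an organ. The chamber of the heart and the muscle sampled are not stated in the labels. The miRNAs carry the names of cattle miRNAs (prefix bta-, left out here). Of the 337 such names in the series, 214 had at least 1 read in heart or muscle, and these 214 were the miRNAs compared.

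MicroRNAs are short RNAs that lower the translation or stability of messenger RNAs with matching sites. Striated muscle, which includes cardiac and skeletal muscle, is known for a small group of them. miR-1 and miR-133a are made from shared transcripts under muscle transcription factors in both kinds of muscle, miR-206 is a skeletal muscle relative of miR-1, and miR-208a, miR-208b and miR-499 lie in introns of myosin heavy chain genes.

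The marker miRNAs followed the organ labels, although at few reads. miR-208a, from an intron of the cardiac alpha myosin heavy chain gene, had 34 reads over the 4 heart libraries and 0 in muscle. Per 1000000 miRNA reads other than miR-1 (RPM without miR-1), its level in heart was 14.7 in the juvenile, 29.6 in the adolescence, 2.89 in the adult and 1.30 in the aged library. Every heart library held it and no muscle library did, and with 3 reads over the 4 muscle libraries as the floor it was at least 6.97-fold higher in heart. miR-206 had 37 reads in muscle, at 24.02, 22.3, 12.9 and 11.2 RPM without miR-1 from juvenile to aged, and 0 in heart. Here the floor of 3 reads over the 4 heart libraries made it at least 20.1-fold higher in muscle. miR-499, which lies in a further myosin gene, had 5 reads in 2 heart libraries and 0 in muscle, too few to set the organs apart. None of miR-206, miR-208a, miR-208b and miR-499 had a read in the 32 libraries of the other organs.

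The organs differed in how much of a library was miR-1. In heart miR-1 was 57.8% of all miRNA reads in the juvenile library, 81.5% in the adolescence, 31.6% in the adult and 15.1% in the aged. In muscle it was 91.95%, 91.8%, 92.9% and 91.1% at the same stages. The 4 muscle libraries lay together and above every heart library, while the heart libraries were spread widely, with a mean of 46.5% ± 29.2 (SD, n = 4) against 91.9% ± 0.722 (SD, n = 4). The difference within a stage was 34.2, 10.3, 61.2 and 76.0 percentage points. An exact paired permutation test gave p = 0.125, two-sided, the smallest that 4 pairs allow. An exact unpaired permutation test gave p = 0.0286, also the smallest possible.

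**Figure D1:**
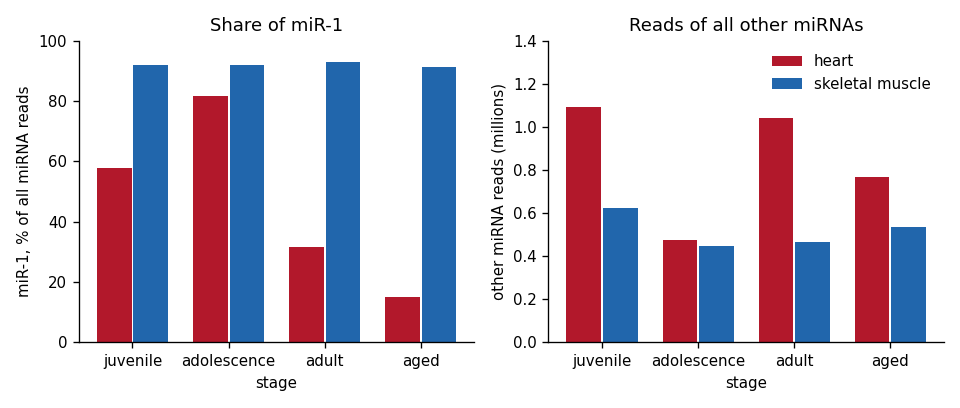
The left bars show miR-1 as a percentage of all miRNA reads in each heart and skeletal muscle library, and the right bars the reads of all other miRNAs, in units of 1000000 reads. Muscle stays between 91.1% and 92.9%, while heart runs from 15.1% to 81.5%, and the adolescence heart library is the closest to muscle.

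Since miR-1 takes up most of a muscle library, the share of every other miRNA there is small. The 8 libraries had 905158 to 2582105 miRNA reads in heart and 5452979 to 7759033 in muscle, but without miR-1 only 473774 to 1090577 in heart and 448130 to 624505 in muscle. Levels are therefore given as RPM without miR-1, where 1 read stood for 0.917 to 2.11 in heart and 1.60 to 2.23 in muscle, and the deposited scale, per 1000000 of all miRNA reads (RPM), is given beside it where it matters. For miR-1 itself, RPM without miR-1 sets its reads against all the others, so its value is a ratio and not a share. The adolescence heart library had the highest miR-1 share and the fewest other reads of the 4 heart libraries, so results are also given without that stage.

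Only miRNAs that reached 10 reads in 4 or more of the 8 libraries were tested, which left 84 of the 214. The 130 others held 0.0488% of the reads other than miR-1. Differences were fitted with limma on log2(level + 1), heart minus muscle, with stage as a block, and calls needed both a Benjamini-Hochberg adjusted p under 0.01 and a log2 difference beyond 1 in either direction. In this way 7 of 84 miRNAs (8.33%) were called. miR-490, miR-1343-3p, miR-30f and miR-574 were higher in heart (4 of 84, 4.76%), and miR-196a, miR-196b and miR-1 were higher in muscle (3 of 84, 3.57%). At an unadjusted p below 0.05 there were 32, and at an adjusted p below 0.05 there were 15 with heart higher (17.9%) and 9 with muscle higher (10.7%). Heart was the higher organ at all 4 stages for 27 miRNAs (32.1%) and muscle for 16 (19%). The heart and muscle libraries did not overlap for 23 miRNAs (27.4%), 15 with heart above (17.9%) and 8 with muscle above (9.52%). Some of the 84 passed the read minimum through 1 organ alone and so had to differ: miR-490, miR-677 and miR-708 through heart, and miR-196a through muscle. For these the values are a description, which leaves 5 of the 7 calls resting on the test. miR-196b, 1 of the 5, had few reads in heart, and its 4 muscle libraries met the minimum by themselves. Its test was thus also close to fixed in advance. The number of calls was 15 without the stage block, and rested on single stages: it was 4 without the juvenile, 27 without the adolescence, 3 without the adult and 2 without the aged pair of libraries. Each such fit estimates anew, from fewer pairs, the spread that limma shares across miRNAs, so these counts do not follow the size of the differences alone. Without the adolescence pair miR-378c had a log2 difference of -1.83 (limma adjusted p = 0.0035), beside -1.90 (limma adjusted p = 0.0107) with all pairs.

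On the deposited RPM 55 of 84 miRNAs (65.5%) were called, 53 higher in heart (63.1%) and 2 in muscle (2.38%), and the libraries did not overlap for 56 (66.7%), 53 with heart above (63.1%) and 3 with muscle above (3.57%). The median log2 difference of the 84 was 2.46 on that scale and 0.21 in RPM without miR-1, and it was 0.15 with TMM and 0.07 with DESeq2 size factors. Of the 39 tested miRNAs named by the rule for the text, 17 were lower in heart on the main scale and higher in heart as deposited. Ratios between 2 miRNAs of the same library do not depend on the total, and 11 were computed, from pairs chosen after their values were seen. In 5 of them the organs did not overlap, and 4 of these are given below with the miRNAs they belong to, while the fifth, miR-486 to miR-378, was 0.0911 to 0.256 in heart and 0.0367 to 0.0629 in muscle. In the other 6 the organs overlapped. The exact paired permutation p was 0.25 for miR-133a to miR-378 and for miR-22-3p to miR-22-5p, 0.375 for miR-151-5p to miR-151-3p and 1 for miR-199a-3p to miR-199a-5p. It was 0.125, the smallest possible, for miR-378 to miR-1 and for miR-339a to miR-339b.

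**Figure D2:**
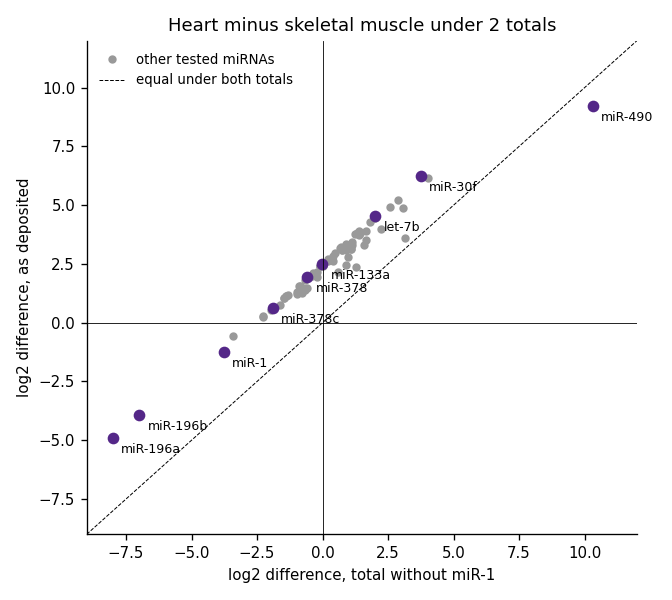
Each point is 1 of the 84 tested miRNAs, with its log2 difference (heart minus muscle) in RPM without miR-1 on the x axis and as deposited on the y axis, and the labelled miRNAs are in purple. Nearly all points lie above the dashed line of equal values, miR-133a moves from -0.02 to 2.50, and miR-378 and miR-378c change sign.

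The miR-133 family, which acts with miR-1 in muscle growth and differentiation, was the second largest source of other reads in both organs. miR-133a stood at 198784, 157896, 270094 and 297502 RPM without miR-1 in heart from juvenile to aged, and at 110672, 290210, 269845 and 305788 in muscle. The organs overlapped, heart was higher at 2 of 4 stages, and the log2 difference was -0.02 with a standard error of 0.42 and a 95% interval of -0.99 to 0.96 (limma adjusted p = 0.979). As deposited the same miRNA was called higher in heart (log2 2.50, limma adjusted p = 0.00281), so this call depended on whether miR-1 was in the total. miR-133b read 3552, 2083, 3926 and 2611 in heart and 4568, 10519, 10612 and 8815 in muscle. Every muscle library was above every heart library, with a log2 difference of -1.47 (standard error 0.45, limma adjusted p = 0.0447) that missed the limit of 0.01 and became 1.05 as deposited. For miR-133c the organs overlapped, at 1527 to 7782 in heart and 1962 to 10275 in muscle. These names differ little in sequence, and how reads fitting more than 1 of them were assigned is not given in the sources used here.

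Within a library, miR-133a was 56.0 to 114 times miR-133b in heart and 24.2 to 34.7 times in muscle. The 2 ranges do not overlap (exact paired permutation p = 0.125, exact unpaired permutation p = 0.0286, the smallest each design allows). miR-133a was also 0.145, 0.0359, 0.584 and 1.67 times miR-1 in heart, against 0.00969 to 0.0299 times in muscle. The heart ratio was thus higher than in muscle at each of the 4 stages, and lowest in the adolescence library.

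miR-378, an intronic miRNA of the gene for a coactivator of mitochondrial metabolism, was the most abundant miRNA after miR-1 on average in both organs, at 24.8% ± 7.54 (SD, n = 4) of the other reads in heart and 36.6% ± 7.80 in muscle. Its level was 352718, 174176, 224130 and 239486 RPM without miR-1 in heart and 481575, 310916, 340737 and 331301 in muscle. Muscle was higher at each stage but the ranges overlapped, and the log2 difference was -0.59 (standard error 0.37, limma adjusted p = 0.235), or 1.93 and called as deposited. Among its relatives, miR-378c showed the clearest gap, with 6884, 4570, 6838 and 7506 in heart and 27156, 19874, 21502 and 27032 in muscle. No heart library reached the muscle range, and the log2 difference of -1.90 (standard error 0.38) fell just short of the call, at a limma adjusted p of 0.0107. It was called without the adolescence pair (log2 -1.83, limma adjusted p = 0.0035) and without the stage block, but not without the juvenile (0.055), adult (0.075) or aged pair (0.073) or with edgeR (0.016), and turned to 0.62 as deposited. miR-378d was also apart, at 169 to 365 in heart and 707 to 1090 in muscle (log2 -1.48, limma adjusted p = 0.0276, or 1.03 as deposited), and miR-378b was not (log2 0.22). The ratio of miR-378 to miR-378c, free of the total, was 31.9 to 51.2 in heart and 12.3 to 17.7 in muscle (exact paired permutation p = 0.125, exact unpaired permutation p = 0.0286).

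miR-208b, from an intron of the beta (slow) myosin heavy chain gene, was read in both organs. Its level was 43.1, 422, 60.6 and 39.1 RPM without miR-1 in heart and 8.01, 22.3, 10.8 and 37.3 in muscle, from 340 and 40 reads. Heart was higher at 4 of 4 stages, but at the aged stage the organs were nearly level. The 4 heart libraries of miR-208b met the read minimum by themselves, and muscle had few reads, so its test adds little to these values. The log2 difference was 2.23 (standard error 0.69, limma adjusted p = 0.0453). It was 1.58 without the adolescence pair, whose heart library held the highest value, 2.95 without the aged pair, and 3.98 and called as deposited (limma adjusted p = 2.54e-04). miR-486, which lies in the gene for ankyrin 1 and is found in muscle and red cells, read 53698, 15862, 57360 and 47920 in heart and 18532, 19568, 16883 and 12165 in muscle. Only the adolescence heart library fell within the muscle range. The log2 difference was 1.24 (standard error 0.49, limma adjusted p = 0.0927), and without the adolescence pair it was 1.76 and called (limma adjusted p = 0.0034). Without the juvenile, adult or aged pair it was 1.15, 1.07 or 0.999 (limma adjusted p = 0.241, 0.382 and 0.278), and as deposited it was 3.76 and called. Of the red cell markers, miR-451 had 1 read in heart and 0 in muscle, and miR-144 was not listed in either. What part red cells had in the miR-486 values was not tested.

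Of the 13 names of the striated muscle list, 10 were tested and 1 was called, miR-1 itself, higher in muscle, beside 7 of 84 (8.33%) over all tested. There were 3 with a log2 difference above 0 and 7 below, and the median was -0.63 beside 0.21 over all 84. As deposited 9 were above 0 and miR-1 alone below, beside 80 above and 4 below of the 84, with 6 of the 10 called higher in heart and a median of 1.88 beside 2.46. As a ratio to all other miRNA reads, miR-1 had a log2 difference of -3.76 (standard error 0.71, limma adjusted p = 0.00885). As a share of all reads, the deposited scale, it was -1.25 and no longer called (limma adjusted p = 0.078). Its call was also lost without the juvenile (limma adjusted p = 0.014), adult (0.075) or aged pair (0.081). It was lost too with edgeR (edgeR adjusted p = 0.0206) and with no minimum of reads (limma adjusted p = 0.0109). With names that repeat another's reads also left out of the total, the limma adjusted p was 0.0158.

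**Figure D3:**
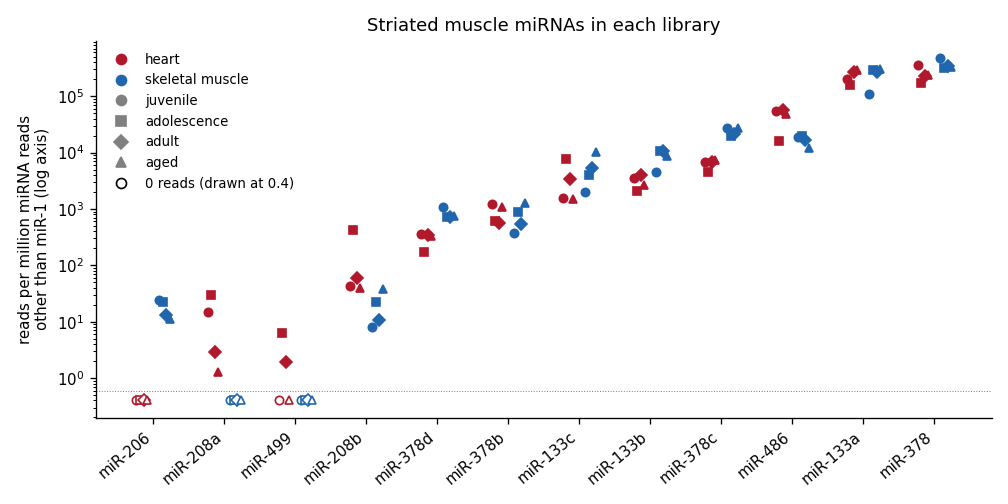
Levels of 12 striated muscle miRNAs in each library, in RPM without miR-1 on a log axis, with red for heart, blue for muscle and the marker shape for the stage. Open symbols are libraries with 0 reads, drawn at 0.4. miR-206 is at 0 in all heart libraries and miR-208a in all muscle libraries, while miR-133a and miR-378 overlap between the organs. miR-133b, miR-378c and miR-378d lie higher in muscle on this scale, but as deposited their mean log2 differences are above 0 and not called.

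The widest difference was in miR-490, which is located in an intron of the gene for the M2 muscarinic receptor, the receptor of the vagus nerve in the heart. It was at 513, 1013, 2329 and 2174 RPM without miR-1 in heart from juvenile to aged, 5131 reads in all, and at 0 reads in each muscle library. With 3 reads over the 4 muscle libraries as the floor, it was at least 1052-fold higher in heart. Since it passed the read minimum through heart alone, its test adds nothing to these values. miR-490 is not a heart-only miRNA, as 30 of the 32 libraries of other organs had reads of it, up to 1604 RPM without miR-1 in adult brain.

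The other 3 miRNAs called higher in heart were present in both organs. miR-30f read 3185, 6672, 19811 and 9405 RPM without miR-1 in heart and 527, 785, 603 and 472 in muscle (log2 3.76, standard error 0.51, limma adjusted p = 0.00173). miR-1343-3p read 673, 127, 1051 and 1099 in heart and 44.8, 51.3, 28.0 and 18.6 in muscle (log2 4.04, standard error 0.73, limma adjusted p = 0.00876). miR-574 read 1027, 217, 1246 and 1156 in heart and 162, 87.0, 116 and 67.1 in muscle (log2 2.87, standard error 0.52, limma adjusted p = 0.00876). For each of them all 4 heart libraries were above all 4 muscle libraries, and for miR-1343-3p and miR-574 the adolescence heart library was the nearest to muscle. The calls of miR-1343-3p and miR-574 were lost without the juvenile, adult or aged pair (limma adjusted p from 0.014 to 0.081), and that of miR-30f without the adult (0.019) or aged pair (0.070). Both miR-1343-3p and miR-574 also lost the call with edgeR (edgeR adjusted p = 0.0161 for each). The same held with names that repeat another's reads also left out of the total (limma adjusted p = 0.0108 for each).

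In muscle the called miRNAs besides miR-1 were miR-196a and miR-196b, which are encoded in the Hox gene clusters that pattern the body axis and limbs. miR-196a stood at 769, 132, 674 and 1476 RPM without miR-1 in muscle, from 1644 reads, and at 0, 4.22, 0.962 and 1.30 in heart, from 4 reads. miR-196b was at 468, 259, 514 and 1008 in muscle and at 0.917, 2.11, 1.92 and 13.0 in heart, from 1188 and 14 reads. Each muscle library was far above each heart library for both. The log2 difference of miR-196b was -6.99 (standard error 0.51, limma adjusted p = 4.04e-05), and -3.94 and called as deposited. That of miR-196a was -8.00, or -4.89 as deposited, with no test given because it passed the read minimum through muscle alone. With so few reads in heart both fitted values depend on the 1 added before the log, and with 10 in its place they were -5.21 for miR-196b and -5.65 for miR-196a. The call of miR-196b held in 15 of 15 alternatives. Its muscle libraries met the read minimum by themselves, however, so its test adds little to the values. These 2 miRNAs have nearly the same sequence, so the division of reads between them is uncertain. miR-10b, the third member of the Hox list with reads, had 1 read in muscle.

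**Figure D4:**
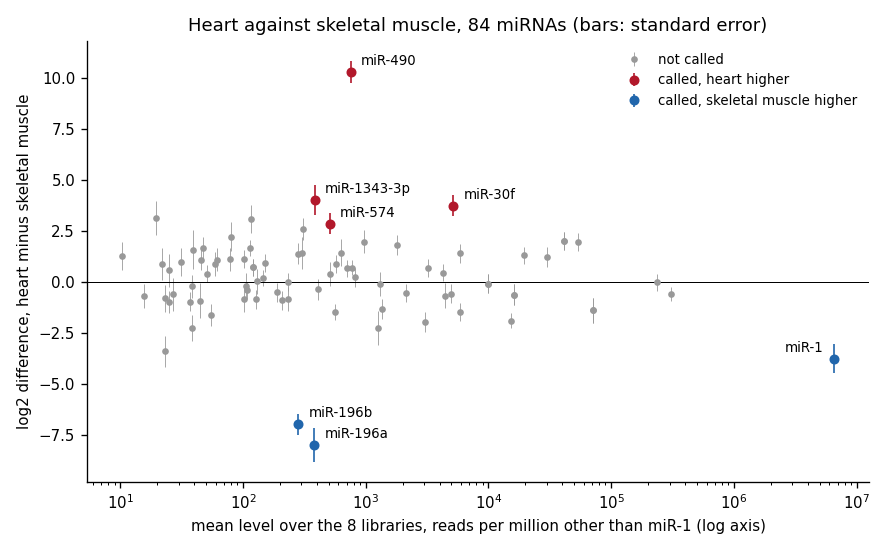
Log2 difference (heart minus muscle, bars show the standard error) of the 84 tested miRNAs against their mean level over the 8 libraries on a log axis. The 4 red points were called higher in heart and the 3 blue points higher in muscle, and miR-490, at 0 reads in muscle, has a fitted value that depends on the 1 added before the log, as have miR-196a and miR-196b, at few reads in heart.

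The miR-30 family, known in heart for restraining connective tissue growth factor, had 6 names with reads and 4 tested, of which 1, miR-30f, was called, beside 7 of 84 (8.33%) over all tested, and as deposited 2 of the 4 were called, beside 55 of 84 (65.5%). miR-30c, its most abundant member, read 26627, 108605, 149982 and 64030 RPM without miR-1 in heart and 12591, 20963, 20902 and 22873 in muscle. Heart was above muscle throughout, and the log2 difference of 1.95 (standard error 0.44, limma adjusted p = 0.0146) missed the limit, which it passed without the adolescence pair (limma adjusted p = 0.0040). Without the juvenile, adult or aged pair the limma adjusted p was 0.038, 0.134 or 0.081. miR-30a-5p and miR-30b-5p had differences of the other sign, -0.91 and -0.86, neither called, and as deposited they were 1.56 and 1.53. The ratio of miR-30c to miR-30f was 6.81 to 16.3 in heart and 23.9 to 48.5 in muscle, again with no overlap (exact paired permutation p = 0.125, exact unpaired permutation p = 0.0286). The names miR-30c and miR-30f thus did not keep 1 proportion across the organs.

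The let-7 family, which holds back cell proliferation, had 7 names tested and 0 called by limma, with 4 above and 3 below 0, beside 8.33% called and 45 above and 39 below over all 84. As deposited all 7 were above 0 and 4 were called (let-7b, its second name, let-7c and let-7d), beside 65.5% over all tested. let-7b read 70086, 36330, 52245 and 111493 RPM without miR-1 in heart and 14636, 19110, 14911 and 13750 in muscle. The organs were apart, the log2 difference was 2.004 (standard error 0.46, limma adjusted p = 0.0146), and it was called without the adolescence pair (2.36, limma adjusted p = 2.8e-04) and without the stage block. Without the juvenile, adult or aged pair the limma adjusted p was 0.063, 0.096 or 0.081. The reads of let-7b are also listed under miR-3596, with equal values in 8 of 8 libraries, so the 2 names are 1 measurement. let-7c and let-7a-5p overlapped between the organs, with log2 differences of 0.46 and -0.56, the latter 1.96 as deposited.

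miR-26a, widely expressed and the third largest source of other reads in muscle, read 60846, 130290, 19113 and 8028 RPM without miR-1 in heart and 107721, 90900, 93568 and 64685 in muscle. The heart libraries spanned both sides of the muscle range. The log2 difference was -1.40 (standard error 0.61, limma adjusted p = 0.125), and without the adolescence pair, where heart was the higher, it was -2.04 and called (limma adjusted p = 0.0018). It was -1.10 without the adult pair (limma adjusted p = 0.438) and -0.87 without the aged pair (0.402), and as deposited it was 1.12. miR-26c repeated these reads, with equal values in 5 of 8 libraries. miR-29a, known for targeting collagen messages, read 0.917 to 34.6 in heart and 24.02 to 80.3 in muscle, lower in heart at 4 of 4 stages (log2 -2.26, limma adjusted p = 0.0324, or 0.23 as deposited). It rests on few reads, 0.917 being 1 read, and with 10 in place of 1 in the log it was -1.46. The muscle libraries of miR-29a met the read minimum by themselves.

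**Figure D5:**
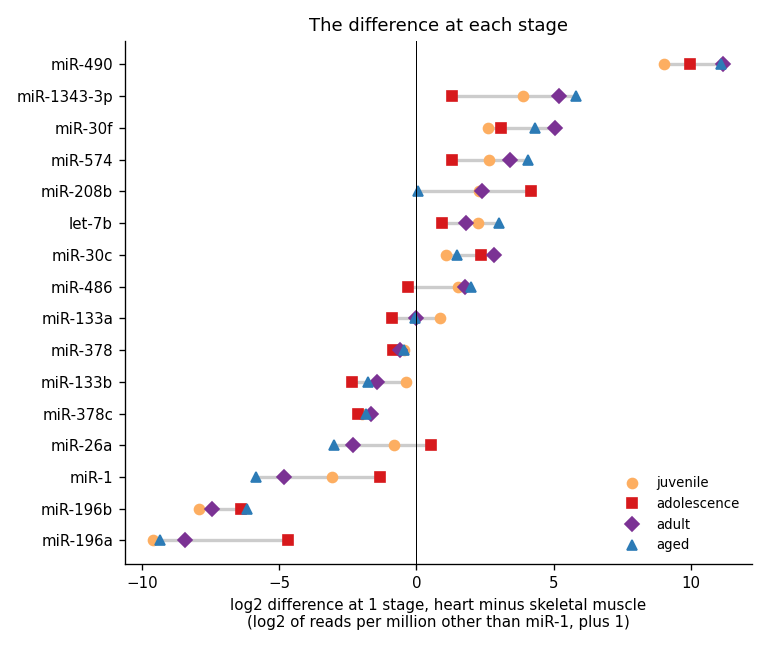
Log2 difference between heart and muscle of the same stage (x axis, log2 of RPM without miR-1, plus 1) for 16 miRNAs, with 1 marker per stage. miR-490 and the miR-196 pair keep far from 0 at each stage, while miR-133a, miR-486 and miR-26a have stages on both sides of 0. Without rescaling, miR-133a, miR-378, miR-133b, miR-378c and miR-26a have mean differences above 0.

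Markers of other cells were read beside these results, since whole organs hold vessels, nerves, blood and connective tissue, and in such bulk RNA fewer cells of a type and less RNA per cell cannot be told apart. The smooth muscle pair miR-143 and miR-145 summed to 21914 to 33235 RPM without miR-1 in heart and 7768 to 14642 in muscle, nearly all of it miR-145. miR-145, called as deposited, was apart in the 2 organs, with 23357, 33233, 31256 and 21908 in heart and 8351, 7763, 14642 and 14598 in muscle (log2 1.32, standard error 0.42, limma adjusted p = 0.0492, not called). The fibroblast list summed to 16132 to 63123 in heart and 33716 to 50754 in muscle. It had 5 names tested, 0 called by limma, and 1 above and 4 below 0. As deposited all 5 were above 0 and 4 were called. The sums and counts include both miR-199a-3p and its second name miR-3604, with 80336 and 80315 reads over the 8 libraries. These names are nearly the same measurement, counted under each name. Both were among the 4 below 0 and among the 4 called as deposited. In that list miR-199a-3p had a log2 difference of -0.62 and miR-199a-5p of -0.58, both above 0 as deposited, and miR-214 of 0.89. The heart libraries together held more reads other than miR-1 than the muscle libraries, so raw reads of the 2 organs are not on 1 scale. The endothelial miR-126-3p had 30 reads in heart and 20 in muscle, or 8.90 and 9.64 RPM without miR-1 over the pooled libraries. The leukocyte miR-142-5p had 84 and 25 (log2 0.89, limma adjusted p = 0.374), and miR-150 had 37 and 17. The neuronal miR-124a had 17 and 22, or 5.04 and 10.6 RPM without miR-1 over the pooled libraries. The epithelial miR-200b had 2 and 0 reads, and miR-192 of liver and kidney 4434 and 2731, with a log2 difference of -0.10. What part these cells had in the differences above was not tested.

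The remaining lists gave no calls by limma in RPM without miR-1, beside 8.33% over all tested. As deposited miR-24-3p, miR-409b, miR-433 and miR-17-5p of these lists were called higher in heart (limma adjusted p from 7.72e-04 to 0.00418), beside 63.1% over all tested. In the miR-23/27/24 cluster miR-24-3p was apart, at 116 to 213 RPM without miR-1 in heart and 52.8 to 74.6 in muscle (log2 1.13, limma adjusted p = 0.0895). miR-27b of the same cluster had 34 reads in heart and 4 in muscle, and was higher in each heart library. Of the 14 names of the DLK1-DIO3 cluster, an imprinted region, 4 were tested and 3 were above 0. miR-409b was at 1516 in the juvenile and 41.0 in the aged muscle library, and at 1665 and 486 in heart at those stages. The log2 difference was 1.44 (standard error 0.68, limma adjusted p = 0.152). In the miR-17/92 clusters miR-17-5p overlapped (log2 0.38), and miR-424-5p, the most read name of its cluster, had 1 read in heart and 18 in muscle.

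Whether the heart to muscle difference was of another size at later stages was asked by comparing the paired differences of the adult and aged stages with those of the juvenile and adolescence stages (2 pairs against 2, limma). Of 84 miRNAs 3 were called (3.57%), and 15 had an unadjusted p below 0.05. With so few pairs, limma took the spread almost wholly from all 84 miRNAs together, and these are not independent. The p values of this comparison therefore do not measure the spread of each miRNA between repeat pairs. The difference of miR-1, taken as its ratio to the other reads, was lower by 3.12 on the log2 scale at the later stages (standard error 0.84, limma adjusted p = 0.0073). This ratio in heart was lower at both later stages than at both earlier ones. miR-2898 and miR-2478 moved the other way, by 4.07 (standard error 0.93, limma adjusted p = 0.00171) and 3.38 (standard error 0.90, limma adjusted p = 0.0073). miR-2898 read 205, 114, 754 and 811 RPM without miR-1 in heart and 3990, 2276, 1376 and 608 in muscle, so it was higher in muscle at the first 3 stages and higher in heart in the aged pair. miR-2478 read 313, 69.7, 502 and 1000 in heart and 218, 145, 103 and 63.4 in muscle. The limma count was 0 without the block, with TMM, with 10 in place of 1 in the log or without a minimum of reads (12, 18, 14 and 23 at an unadjusted p below 0.05), and it was 1, 1, 2 and 0 without the juvenile, adolescence, adult and aged pair.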

How the data were processed

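The authors trimmed the small RNA reads, set aside other RNA classes, matched the rest to miRBase and predicted further miRNAs with miRDeep. They deposited, for each library, RPM values (headed tpm), reads per 1000000 miRNA reads. Base calling used bcl2fastq 1.8.4 per the labels. In the 8 libraries all 1461 listed values lay within 0.01 of whole reads, which gave the recovered reads. An unlisted miRNA was taken as 0 reads. Numbered predicted names were left out of the comparison (at most 0.0949% of reads).

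Levels were rescaled to reads without miR-1. limma 3.58.1 (R 4.3.3, trend) was fitted on log2(level + 1) of the 84 miRNAs that reached 10 reads in 4 libraries or more, stage as block, since same-numbered libraries came from the same deer. Deviations of same-numbered libraries correlated at r = 0.59, -0.19, 0.21 and -0.05 across the 84 miRNAs, which are not independent. Heart and muscle libraries of different numbers correlated at -0.52 to 0.34, and of the same-numbered pairs only the juvenile pair lay above this range. p values of the organ comparison rest on the spread between pools of different stages, shared in part across miRNAs by limma. Those of the comparison of stages rest almost wholly on the spread over all 84 miRNAs together. edgeR 4.0.16 and DESeq2 1.42.0 were run on recovered reads as alternatives. Floors of 3 reads cover counting error only. The 5 second names of near-identical pairs (miR-3596, miR-3604, miR-3600, miR-2285u and miR-26c) stayed in the totals and tests. The text names the striated muscle list, the called miRNAs with 1 direction at all stages (10 largest each way), and up to 4 members by level of each other list. miR-677, miR-708, miR-2898 and miR-2478, and the miRNAs named last in the closing section, were chosen after their values were seen. The miRNAs and lists were chosen with earlier results of these data known. No sequences are printed, as no reference was used here.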

Additional observations from a re-analysis of the deposited data

Results flagged for a closer look

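In 77 groups of 4 libraries, 10 held a library far from the other 3 by Dixon's ratio, where chance gives about 1 in 20. The adolescence heart library was the one apart in 6 of them, with the 3 other heart libraries in brackets, all in RPM without miR-1. It was low in miR-486 at 15862 (47920 to 57360), in miR-574 at 217 (1027 to 1246) and in miR-378d at 169 (331 to 365). It was high in miR-199a-5p at 7001 (2758 to 3174), in miR-17-5p at 1532 (285 to 358) and in miR-24-3p at 213 (116 to 120). The same library had the highest miR-1 share in heart, 81.5%. In muscle the juvenile library was low in miR-133a at 110672 (269845 to 305788) and in miR-30c at 12591 (20902 to 22873). The adult muscle library was low in miR-30a-5p at 172 (280 to 297), and the aged one high in miR-142-5p at 22.4 (8.01 to 8.93), from few reads.

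The heart to muscle difference changed between the earlier and later stages for 3 miRNAs in the limma test of that change. On the log2 scale the change was -3.12 for miR-1 (as its ratio to the other reads), 4.07 for miR-2898 and 3.38 for miR-2478. The test had 2 pairs against 2, and its spread came almost wholly from all tested miRNAs together.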

How the results depend on the processing

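The 7 calls became 55 as deposited (53 higher in heart, 2 in muscle), 14 with TMM, 11 with DESeq2 size factors, 4 with second names also left out of the total, 15 with no replicate block, 17 with all 40 libraries, 4 with edgeR and 24 with DESeq2. They were 7 with no minimum of reads, 9 with 10 in place of 1 in the log and 8 with second names dropped, and ranged from 2 to 27 when 1 stage was left out (2 without the aged, 3 without the adult, 4 without the juvenile and 27 without the adolescence pair). miR-196b, whose muscle libraries met the read minimum by themselves, kept its call in 15 of 15 alternatives. miR-30f kept it in 13, miR-1343-3p and miR-574 in 10 and miR-1 in 8. The 3 calls of the comparison of stages became 7 as deposited and 0 with TMM, with no minimum of reads, with 10 in the log or with no replicate block, and ranged from 0 to 2 when 1 stage was left out. Without pairing the miR-1 share differed by the same -45.4 points (exact permutation p = 0.0286). The cause of these changes was not tested.

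Of 582 values of 39 named miRNAs under the alternatives, 492 kept their direction and side of the limits, 45 passed them, 20 no longer did and 25 changed sign. As deposited the changes of sign were miR-133a 2.50, miR-133b 1.05, miR-133c 1.83, miR-378 1.93, miR-378c 0.62, miR-378d 1.03, miR-199a-3p 1.90 and its second name miR-3604 1.90, miR-199a-5p 1.93, miR-192 2.40, let-7a-5p 1.96, miR-30a-5p 1.56, miR-30b-5p 1.53, miR-29a 0.23, miR-26a and miR-26c 1.12, and miR-409a 1.52. With second names out of the total miR-133a was 0.00655. Leaving out each stage in turn gave ranges of -0.31 to 0.27 for miR-133a, -1.23 to 0.00942 for miR-133c, -0.26 to 0.48 for miR-378b, -0.51 to 0.43 for miR-192, -0.26 to 1.25 for miR-3957 and -0.22 to 0.95 for miR-17-5p. With 448130 to 1090577 reads other than miR-1 in a library, miR-208a, miR-206 and miR-499 rest on few reads, and the 130 untested names, these 3 included, were given no test.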

Other observations

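Several miRNAs outside the lists lay close to the limit of a call, and are named here after their values were seen. Those higher in heart with no overlap between the organs were miR-1306 (log2 2.59, limma adjusted p = 0.0144), miR-197 (1.99, 0.0324) and miR-95 (1.66, 0.0201). miR-677 had 109 reads in heart and 10 in muscle, and passed the read minimum through heart alone. miR-1306 read 458, 129, 760 and 829 RPM without miR-1 in heart from juvenile to aged and 41.6, 75.9, 118 and 72.7 in muscle. miR-95 was steady within each organ, at 144 to 216 in heart and 43.1 to 65.2 in muscle. miR-1296 (3.08, limma adjusted p = 0.0146) and miR-339a (1.82, 0.0315) were higher in heart at 4 of 4 stages with overlapping ranges. miR-1296 had 765 reads in heart and 40 in muscle. Its heart libraries met the read minimum by themselves, so its test adds little to the values.

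In muscle the nearest were miR-193b, a miRNA known from brown fat and muscle, and miR-7. miR-193b read 40.03, 49.1, 43.1 and 33.6 RPM without miR-1 in muscle and 0, 2.11, 9.62 and 6.51 in heart, with no overlap (log2 -3.41, limma adjusted p = 0.0146). It rests on 85 and 16 reads, and its muscle libraries met the read minimum by themselves. miR-7 was higher in muscle at 4 of 4 stages, at 2718 to 6518 against 332 to 4257 in heart (log2 -1.97, limma adjusted p = 0.0248, or 0.54 as deposited).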
